A study of Mus musculus with 12 samples.

Results

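The genes described here are 10 genes of peroxide, superoxide and NRF2 target defence: Nqo1, Hmox1, Srxn1, Txnrd1, Prdx1, Prdx3, Prdx6, Sod1, Sod2 and Cat. A gene was taken from the array table by probe sets whose annotated symbol was exactly its own. This found 8 of the 10 genes, among 18194 genes with such probe sets in the table. Prdx1 was annotated only to probe sets shared with a second gene, so no value is given for it, and no probe set carried the symbol Prdx6. The 8 genes had 21 probe sets, of which 16 passed the filter on dim signals.

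Whole excised hearts of CD1 mice were profiled on Affymetrix expression arrays. The mice either carried DN-MCU, a dominant negative construct of the channel protein through which calcium enters mitochondria, or were wild-type (WT) littermates. The series title describes the inhibition as myocardial, and no label used here names the promoter that drives the construct. Adult hearts were taken at 42 days from mice labelled male and neonatal hearts at 1 day, with no sex given, and WT and DN-MCU hearts of each age made up 4 groups of 3 arrays, labelled as biological replicates. No mouse received a drug or any other treatment named in the labels.

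Superoxide that leaks from the respiratory chain is dismutated to hydrogen peroxide by SOD2 in the matrix and by SOD1 in the cytosol and intermembrane space. Peroxide is then removed by catalase, glutathione peroxidases and peroxiredoxins, and thioredoxin reductases supply the electrons that peroxiredoxins need. NRF2 (gene Nfe2l2) is a transcription factor that KEAP1 holds at low levels until electrophiles or oxidants modify KEAP1. It then binds antioxidant response elements with a small MAF protein and raises a set of target genes, of which Nqo1, Hmox1, Srxn1, Txnrd1 and Prdx1 are textbook members.

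Values are log2 signals, on which a difference of 1 is a doubling, and the log2 level of 3.359, the median of the whole table, is close to background. Levels are compared only within a probe set, never between genes. DN-MCU adult 3 stood apart from the other arrays: it lay at 121.4 on the second principal component, where the others lay between -50.89 and 24.41. WT adult 1, at 24.41, lay apart from the other WT adults, at -48.25 and -50.89. A probe set of Mcu had log2 signals of 2.45 to 4.55 in WT arrays and 8.44 to 10.41 in DN-MCU arrays, and another stood between 7.39 and 8.18 in both. Cardiomyocyte markers, 8 of 8 measured, had mean log2 signals between 14.79 and 15.38 in all 12 arrays. In tissue of mixed cells, fewer cells of a type and less RNA per cell cannot be told apart.

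In adult hearts 2 of the 8 genes passed the test, and they moved in opposite directions. Srxn1 was higher and Nqo1 lower in DN-MCU adults than in WT adults, although both are NRF2 targets. Txnrd1, another target, had a small positive difference that did not pass. In neonates 0 of the 8 passed in limma, and 0 had an unadjusted p under 0.05. Among all 11798 genes tested, 3.42% were called higher and 1.69% lower in DN-MCU adults, and 0.0254% were called either way in neonates. The 8 genes had a median log2 difference of 0.2 in adults and -0.07 in neonates, against 0.0 and 0.03 over all genes.

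The starts of Nqo1, Srxn1 and Txnrd1 are shown because these 3 targets of the same factor behaved differently. The sequences are the 250 bases upstream of each RefSeq start in GRCm38.p6, 5′ to 3′ on the strand of the gene. Nqo1 lies on the minus strand (chr8:107403206-107403455), Srxn1 on the plus strand (chr2:152105274-152105523) and the Txnrd1 start shown, the second of 3, on the plus strand (chr10:82858956-82859205). Capitals mark matches, on either strand, to the looser antioxidant response element TGACNNNGC or to the tighter TGANTCAGC, of the same length. The tighter motif has fewer open positions (N) and was added after the values were seen. It is a different motif, not a stricter form of the looser one, as it is open where the looser one has a C.
Nqo1: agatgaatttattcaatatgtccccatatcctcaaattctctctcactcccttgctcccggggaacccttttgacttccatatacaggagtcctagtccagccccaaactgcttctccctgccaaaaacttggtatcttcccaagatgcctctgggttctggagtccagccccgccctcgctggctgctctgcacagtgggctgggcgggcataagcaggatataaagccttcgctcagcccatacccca
Srxn1: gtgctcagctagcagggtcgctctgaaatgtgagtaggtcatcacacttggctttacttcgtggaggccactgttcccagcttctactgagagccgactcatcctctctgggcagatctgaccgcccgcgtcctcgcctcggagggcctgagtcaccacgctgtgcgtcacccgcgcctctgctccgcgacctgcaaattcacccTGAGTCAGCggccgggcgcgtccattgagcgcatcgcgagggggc
Txnrd1: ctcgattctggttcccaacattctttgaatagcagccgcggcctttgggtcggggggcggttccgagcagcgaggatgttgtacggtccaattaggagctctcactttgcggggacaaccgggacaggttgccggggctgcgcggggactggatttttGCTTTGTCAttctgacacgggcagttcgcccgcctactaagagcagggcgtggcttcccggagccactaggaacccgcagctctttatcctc
The Nqo1 stretch held neither motif. In Srxn1 the tighter motif stood at -45 to -37 from the start, as TGAGTCAGC, which does not match the looser motif. A match to the looser motif lay after the start, outside the stretch shown. At the Txnrd1 start shown, the looser motif stood at -92 to -84, read from the opposite strand as GCTTTGTCA. The windows of the other Txnrd1 starts held neither motif. Windows of 300 bases were searched (250 before and 50 after the start). The looser motif was found in 4071 of 32851 mouse promoters (12.4%) and the tighter in 390 (1.19%). Of the 10 promoters listed for 8 of the genes, 4 held the looser motif: those of Srxn1, Prdx1 and Sod1 and the Txnrd1 start shown. The tighter motif was held by 2, those of Srxn1 and Prdx1. The windows of Prdx3, Sod2 and Cat held neither. Of 39 promoters of other NRF2 target genes, 12 held the looser motif (30.8%). A match is a stretch of letters, not a measured binding site, and elements farther from the start were not searched.

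Nqo1 encodes NAD(P)H quinone oxidoreductase, which reduces quinones in a single step that avoids semiquinone radicals. Its log2 signal was 8.87, 9.11 and 8.84 in WT adults 1 to 3 and 7.92, 7.85 and 7.80 in DN-MCU adults 1 to 3. All 3 DN-MCU adults lay below all 3 WT adults, with a narrow spread within each group. Nqo1 fell by 1.08 on the log2 scale (SE 0.14, 95% interval -1.39 to -0.78), from 8.94 ± 0.15 to 7.86 ± 0.06 (SD, n = 3 each), which is 2.12-fold lower, with an adjusted p of 0.00165 in limma. Without DN-MCU adult 3 the difference was -1.06 (limma adjusted p 0.00204). When the adult arrays alone were fitted, so that the neonates no longer contributed to the estimate of spread, the same difference had an adjusted p of 0.0673 in limma and did not pass.

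In neonates Nqo1 had log2 signals of 6.41, 6.17 and 6.39 in WT and 6.54, 6.57 and 6.28 in DN-MCU hearts. The groups overlapped, and the difference was 0.14 (SE 0.14, 95% interval -0.17 to 0.44, limma adjusted p 1.0). Both neonatal groups lay below both adult groups. The adult effect minus the neonatal effect was -1.22 (SE 0.2, limma adjusted p 0.0194). The replicate numbers were taken to pair the neonatal arrays, though no label says that they do. With that replicate block the adjusted p was 0.0766 in limma. The difference between ages thus passed without the block and did not pass with it.

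Srxn1 encodes sulfiredoxin, which repairs peroxiredoxins whose active-site cysteine has been overoxidized to sulfinic acid. Its brightest probe set had log2 signals of 7.36, 7.79 and 7.48 in WT adults and 8.56, 8.70 and 9.0 in DN-MCU adults. The groups did not overlap, and the highest signal was that of DN-MCU adult 3. Srxn1 rose by 1.21 (SE 0.19, 95% interval 0.8 to 1.62), from 7.55 ± 0.22 to 8.75 ± 0.22 (SD, n = 3 each), which is 2.31-fold higher, with an adjusted p of 0.00425 in limma. Without DN-MCU adult 3 the rise was 1.09 (limma adjusted p 0.0065). With the adult arrays fitted alone the adjusted p was 0.0939 in limma, which did not pass. The other probe sets of Srxn1 were at background in WT adults. The brightest is among the cross-matching probe sets that an alternative left out.

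In neonates the same probe set had log2 signals of 6.45, 6.43 and 6.28 in WT and 5.86, 6.41 and 6.29 in DN-MCU hearts. The groups overlapped, and DN-MCU neonate 1 was the lowest of the 12 arrays. The neonatal difference was -0.2 (SE 0.19, 95% interval -0.61 to 0.21, limma adjusted p 1.0). The adult effect exceeded the neonatal effect by 1.41 (SE 0.26, limma adjusted p 0.0403). With the neonatal replicate block this adjusted p was 0.12 in limma, so the call was lost.

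A second probe set of Srxn1 was at background in 9 arrays. Its log2 signals were 2.86, 2.79 and 2.83 in WT adults, 2.60 to 2.77 in WT neonates and 2.66 to 2.75 in DN-MCU neonates. In DN-MCU adults 1 to 3 they were 4.40, 5.04 and 5.38, the only values of this probe set above the background level. This probe set passed the filter on dim signals only through the DN-MCU adults, so it had to differ there. Its signals are a description, and no difference or test of it is used as support. Another probe set, left out by the filter, stood at 3.17 to 3.21 in WT adults and at 4.15, 3.34 and 6.37 in DN-MCU adults, so its signal was above background in DN-MCU adults 1 and 3. The last stayed between 2.41 and 2.87 in all arrays, at background.

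**Figure D1:**
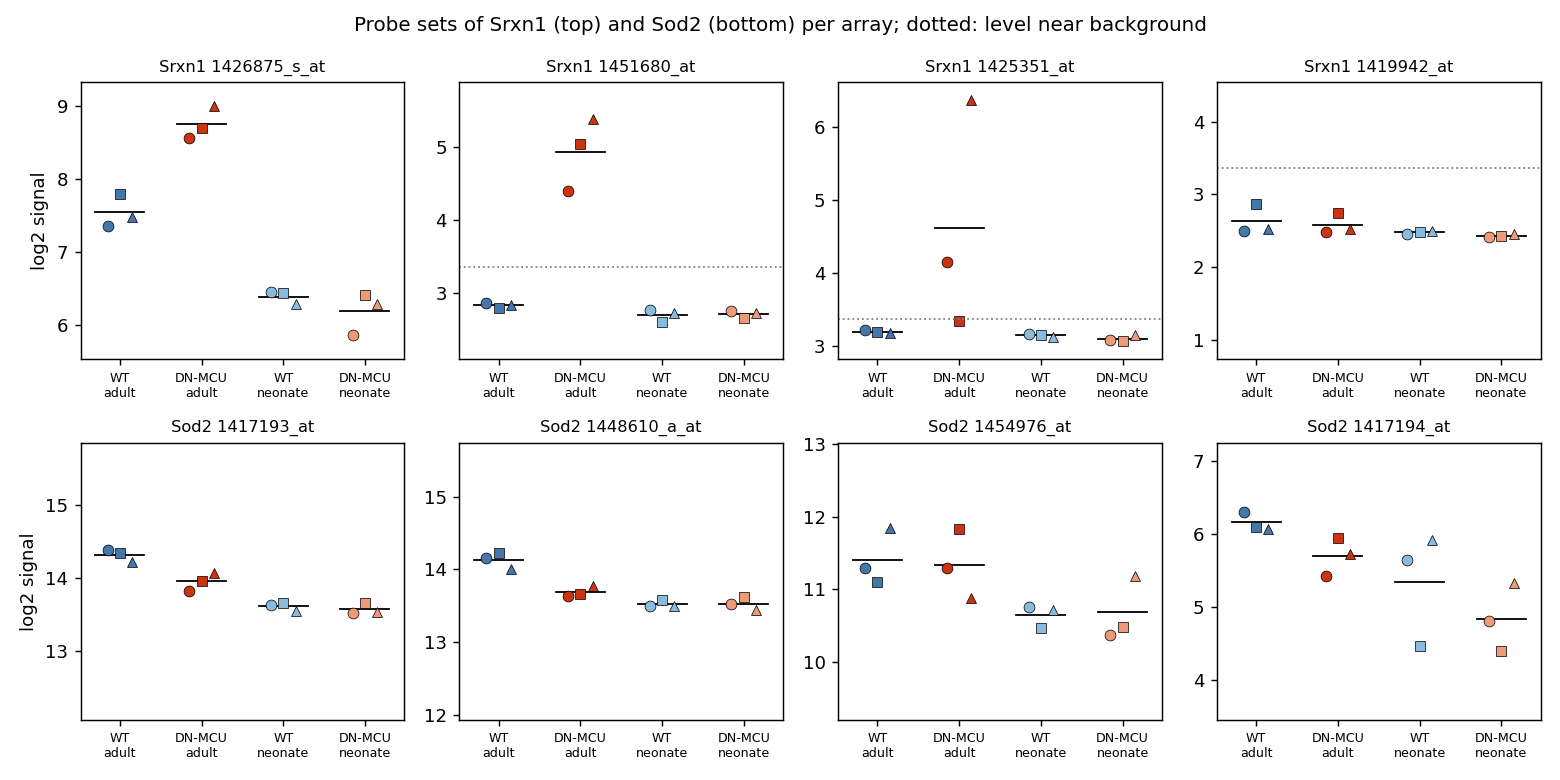
Log2 signal (vertical axis) of the 4 probe sets of Srxn1 (top row) and the 4 of Sod2 (bottom row) in each array; points are arrays (circle, square and triangle for replicates 1, 2 and 3), bars are group means of n = 3, and the dotted line is the level near background, log2 3.359, where it falls in the panel. The second Srxn1 panel shows the 3 DN-MCU adults at 4.40 to 5.38, above the line, and the other 9 arrays below it.

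Txnrd1 encodes the cytosolic thioredoxin reductase, a selenoprotein that keeps thioredoxin reduced. Its log2 signal was 9.22, 9.0 and 9.14 in WT adults and 9.53, 9.74 and 9.24 in DN-MCU adults. All 3 DN-MCU adults lay above the WT adults, DN-MCU adult 3 by the least. The difference was 0.38 (SE 0.17, 95% interval 0.0 to 0.75, 1.3-fold) with an unadjusted p of 0.0486 and an adjusted p of 0.27 in limma, so it did not pass. Adult groups of arrays did not overlap for 18.4% of all genes tested. Without DN-MCU adult 3 the difference was 0.51, with an adjusted p of 0.0806 in limma.

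In neonates the log2 signals of Txnrd1 were 9.12, 8.66 and 9.08 in WT and 8.87, 8.80 and 8.94 in DN-MCU hearts, which overlapped. The difference was -0.09 (SE 0.17, 95% interval -0.46 to 0.29). The adult effect minus the neonatal effect was 0.46 (SE 0.24, limma adjusted p 0.627), which did not pass. The 2 other probe sets of Txnrd1 stayed between 2.25 and 2.95 in all arrays, at background.

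Set against each other within each array, the Nqo1 and Srxn1 signals parted in adults. The Srxn1 minus Nqo1 log2 difference was 2.29 higher in DN-MCU than in WT adults, and the 2 groups of arrays did not overlap. In neonates the same quantity was 0.34 lower in DN-MCU hearts (a change of -0.34). The Txnrd1 minus Nqo1 difference was 1.46 higher in DN-MCU adults, again without overlap, and changed by -0.22 in neonates. For Srxn1 minus Txnrd1 the adult change was 0.83 and the neonatal change -0.12. These are descriptions of unequal change and were given no test, because Nqo1 and Srxn1 were chosen for this contrast with their changes known.

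Hmox1 encodes heme oxygenase 1, which breaks heme down to biliverdin, iron and carbon monoxide. Its log2 signal was 6.93, 6.10 and 6.44 in WT adults and 7.36, 6.85 and 7.65 in DN-MCU adults. The groups overlapped, WT adult 1 lying above DN-MCU adult 2. The difference of 0.79 (SE 0.31, 95% interval 0.11 to 1.47, 1.73-fold) had an unadjusted p of 0.0272 and an adjusted p of 0.202 in limma, so it did not pass. In neonates the signals were 6.57, 7.12 and 7.42 in WT and 6.36, 7.08 and 6.52 in DN-MCU hearts, overlapping, with a difference of -0.38 (SE 0.31). The adult effect minus the neonatal effect was 1.18 (SE 0.44, limma adjusted p 0.389). The SD of Hmox1 within groups was 0.38 to 0.43 on the log2 scale.

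**Figure D2:**
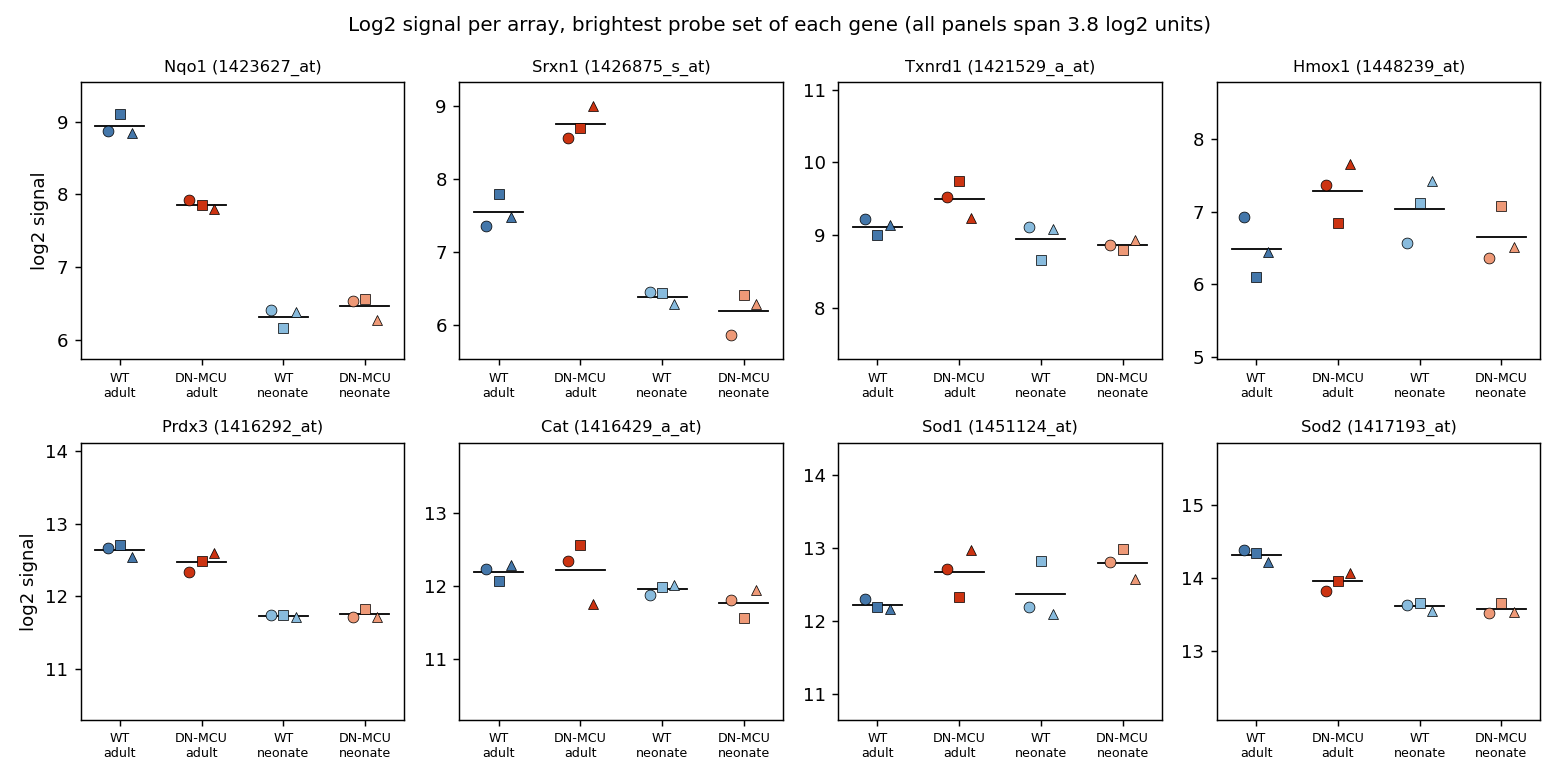
Log2 signal (vertical axis, 3.8 log2 units in every panel) of the brightest probe set of each of the 8 genes in the 4 groups; points are arrays (circle, square and triangle for replicates 1, 2 and 3) and bars are group means of n = 3. Nqo1 steps down from 8.94 in WT adults to 7.86 in DN-MCU adults while Srxn1 steps up from 7.55 to 8.75, and neither group pair separates in neonates.

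Among the genes that act on superoxide and peroxide directly, none passed between DN-MCU and WT at either age. Sod2 encodes the manganese superoxide dismutase of the mitochondrial matrix, beside the respiratory chain. Its brightest probe set had log2 signals of 14.38, 14.34 and 14.22 in WT adults and 13.82, 13.96 and 14.07 in DN-MCU adults, without overlap. The difference was -0.36 (SE 0.12, 95% interval -0.63 to -0.1, adjusted p 0.128 in limma), which did not pass. A second bright probe set had a difference of -0.43 (SE 0.12, limma adjusted p 0.0702), also without overlap, and the other 2 had -0.07 and -0.47. The brightest passed without DN-MCU adult 3 (-0.42, limma adjusted p 0.0444), where all 45037 probe sets were tested with no filter (adjusted p 0.0328) and with a trended, robust prior (adjusted p 0.0277). In neonates its signals were 13.63, 13.66 and 13.54 in WT and 13.52, 13.65 and 13.53 in DN-MCU hearts, which overlapped.

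Sod1 encodes the copper and zinc superoxide dismutase of the cytosol. Its brightest probe set had log2 signals of 12.30, 12.19 and 12.16 in WT adults and 12.71, 12.33 and 12.97 in DN-MCU adults. The groups did not overlap, and the difference of 0.45 (SE 0.22, 95% interval -0.03 to 0.94, limma adjusted p 0.313) did not pass. A second probe set of similar brightness differed by 0.57 (SE 0.19, limma adjusted p 0.127). Of 2 dimmer ones, the brighter had a difference of -0.13 (SE 0.21), within its error, and the other was close to background. In neonates the brightest stood at 12.19, 12.82 and 12.10 in WT and 12.81, 12.99 and 12.58 in DN-MCU hearts, with a difference of 0.42 (SE 0.22, limma adjusted p 1.0). WT neonate 2 lay among the DN-MCU neonates. Neonatal groups of arrays did not overlap for 13.9% of all genes, and for none of the brightest probe sets of the 8 genes.

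Prdx3 encodes the peroxiredoxin of the mitochondrial matrix. Its log2 signal was 12.66, 12.70 and 12.54 in WT adults and 12.34, 12.48 and 12.60 in DN-MCU adults, which overlapped. The difference was -0.16 (SE 0.12, 95% interval -0.42 to 0.1, limma adjusted p 0.547). The 6 neonatal signals lay between 11.71 and 11.83, and their difference was 0.02 (SE 0.12, 95% interval -0.25 to 0.28).

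Cat encodes catalase, a peroxisomal enzyme that is also abundant in fat cells and red cells. Its brightest probe set had log2 signals of 12.23, 12.07 and 12.28 in WT adults and 12.34, 12.56 and 11.75 in DN-MCU adults. DN-MCU adult 3 was the lowest adult array and the other 2 DN-MCU adults the highest. The difference was 0.02 (SE 0.2, 95% interval -0.42 to 0.46, limma adjusted p 0.976), and it was 0.25 without DN-MCU adult 3 (limma adjusted p 0.329) and -0.15 without DN-MCU adult 2 (0.686), so it had no settled sign. The second probe set, with a difference of 0.24 (SE 0.21), was also lowest in DN-MCU adult 3, at 11.68, among the adult arrays. In neonates the difference of the brightest was -0.19 (SE 0.2).

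Adipocyte markers, 7 of 11 measured, were also lowest among the adult arrays in DN-MCU adult 3: their mean log2 signal was 10.82, 9.61 and 10.13 in WT adults and 10.47, 11.25 and 7.68 in DN-MCU adults 1 to 3. In neonates it lay between 5.64 and 5.87. The 2 of 9 erythroid markers measured, Alas2 and Slc4a1, had means of 7.02 to 8.01 in WT adults and 6.15, 7.33 and 8.70 in DN-MCU adults. Macrophage markers, 10 of 10 measured, ranged from 8.83 to 9.03 in WT adults and from 8.61 to 8.86 in DN-MCU adults. In the adult comparison none of the markers in these 3 lists passed. Endothelial markers, 7 of 7 measured, had means of 9.84 to 9.98 in WT adults and 9.47 to 9.71 in DN-MCU adults, without overlap, and none passed. Smooth muscle markers, 5 of 5 measured, had means of 9.11 to 9.83 in WT adults and 9.71 to 10.02 in DN-MCU adults, and 1 of them, Acta2, passed (1.69 higher, limma adjusted p 0.00115). The part of these cell types in the differences of the 8 genes was not tested.

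**Figure D3:**
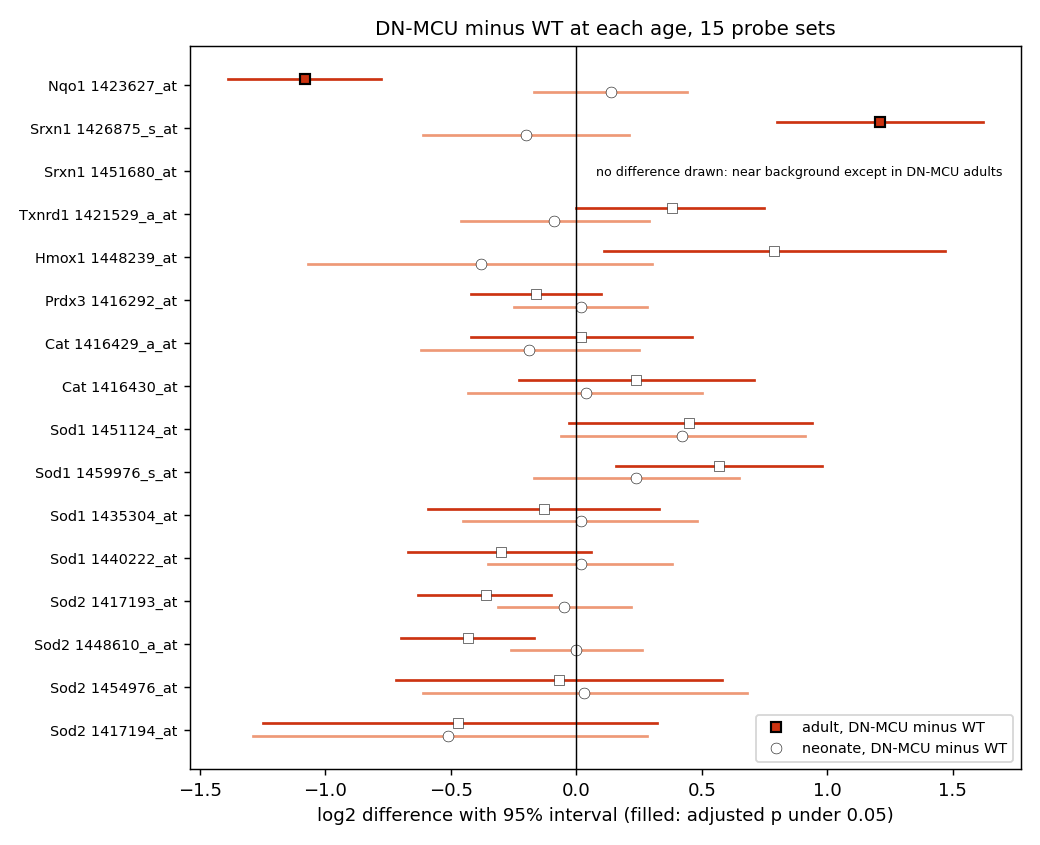
Log2 difference between DN-MCU and WT hearts (horizontal axis) with its 95% interval for the probe sets tested, in adults (squares) and in neonates (circles); filled symbols passed at an adjusted p under 0.05 in limma. The Nqo1 square lies at -1.08 and that of the brightest Srxn1 probe set at 1.21, and no other symbol is filled; no difference is drawn for the second Srxn1 probe set, which passed the filter only through the DN-MCU adults.

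In the fit without pairing, the difference between ages in the effect of DN-MCU passed for 2 of the 8 genes, Nqo1 and Srxn1. Of all genes tested 0.949% passed. With the neonatal replicate block, 0 of the 8 genes passed, and 42 of all 11798. The median of this difference was 0.12 over the 8 genes and -0.03 over all genes. For the other 6 genes the adult effect minus the neonatal effect ranged from -0.32 for Sod2 to 1.18 for Hmox1. The adult comparison and this difference share the adult arrays.

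Between WT neonates and WT adults, 4 of the 8 genes passed, and all 4 were lower in neonates: Nqo1, Srxn1, Prdx3 and Sod2. Over all genes tested, 17.2% were called lower and 27.8% higher in WT neonates, and 0 of the 8 genes were called higher. Nqo1 was 6.13-fold lower in WT neonates (log2 difference -2.61, SE 0.14, limma adjusted p 2.53e-07). Srxn1 was 2.23-fold lower (-1.16, SE 0.19, limma adjusted p 0.000534), and Prdx3 was 1.86-fold lower (-0.9, SE 0.12, limma adjusted p 0.000147). Sod2 was 1.63-fold lower (-0.7, SE 0.12, limma adjusted p 0.000794). Its other probe sets had differences of -0.6 (limma adjusted p 0.00202), -0.76 (0.0558) and -0.81 (0.0843), and only that at -0.6 passed. Prdx3 and Sod2 encode enzymes of the mitochondrial matrix, and whether this bears on their lower signal at 1 day was not tested. Under a replicate block within each age, Srxn1 (limma adjusted p 0.0542) and Sod2 (0.0554) did not pass.

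The remaining 4 genes did not pass between the ages. Their log2 differences were 0.54 (SE 0.31) for Hmox1, -0.17 (SE 0.17) for Txnrd1, 0.16 (SE 0.22) for Sod1 and -0.24 (SE 0.2) for Cat. The median was -0.47 over the 8 genes and 0.16 over all genes. Subtracting array medians moved the median of all probe sets in this comparison from 0.07 to 0.20, and the 4 calls were as before. The comparison shares the WT adult arrays with the adult comparison of DN-MCU and WT, so their values stand side by side without a test of likeness. Nqo1 was lower in both DN-MCU adults and WT neonates than in WT adults, while Srxn1 was higher in the former and lower in the latter.

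The other NRF2 targets that passed in adult hearts were higher in DN-MCU, the direction of Srxn1 and opposite to that of Nqo1. Of 35 listed genes 29 were measured, and 1 of these, the glutathione transferase Gsta2, passed the filter only through the DN-MCU adults (4.17 ± 0.66, against 3.01 ± 0.03 in WT adults, at background) and is left out of the counts. Of the other 28, 3 rose and 0 fell, with a median log2 difference of 0.17. Over all genes 3.42% were called higher and 1.69% lower, with a median of 0.0. With Gsta2 counted, 21 of the 29 differences were positive and 8 negative. The most negative was that of Gsta3, at -1.06 (SE 0.48, limma adjusted p 0.272), which did not pass. The organic anion exporter Abcc4 rose from 8.23 ± 0.38 to 9.96 ± 0.35 (SD, n = 3; 3.31-fold, limma adjusted p 0.00214) and the glycine transporter Slc6a9 from 5.22 ± 0.5 to 6.62 ± 0.39 (2.64-fold, 0.0202). Gclm, the modifier subunit of the enzyme that limits glutathione synthesis, rose from 9.03 ± 0.11 to 9.64 ± 0.11 (1.53-fold, limma adjusted p 0.0271), and its catalytic partner Gclc had a difference of 0.41 that did not pass (0.0962). Of these 3, Abcc4 alone passed under the block of neonatal replicates; the adjusted p was 0.0696 for Gclm and 0.053 for Slc6a9 in limma. In neonates 0 of the 29 passed in limma, and 1 had an unadjusted p under 0.05.

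Among 17 regulators of the NRF2 pathway, all measured, 3 rose in DN-MCU adults, 0 fell and 14 did not pass, with a median of 0.2, against the same 3.42% called higher and 1.69% lower over all genes. Sesn2, a stress-induced sestrin, rose from 5.28 ± 0.01 to 6.48 ± 0.28 (SD, n = 3; 2.3-fold, limma adjusted p 0.00283). Nfe2l1, which encodes NRF1, a relative of NRF2 that binds similar elements, rose 1.69-fold (limma adjusted p 0.00733). Sqstm1, which encodes p62, a cargo adaptor that binds KEAP1, rose 1.45-fold (limma adjusted p 0.0431, and 0.0841 with the neonatal replicate block). Nfe2l2 itself stood at 10.93 ± 0.15 in WT and 11.13 ± 0.08 in DN-MCU adults (limma adjusted p 0.475), Keap1 differed by 0.11 and Bach1, a repressor at the same elements, by -0.47, and none of these passed.

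Of the other peroxide and superoxide defence genes, 25 of 28 measured, 1 rose in DN-MCU adults, 0 fell and 24 did not pass, with a median of 0.17; this share is near the 3.42% of all genes called higher. The gene that rose was Gsr, glutathione reductase, by 1.54-fold (limma adjusted p 0.0467, and 0.118 with the neonatal replicate block). The calls in this list changed between fits, as did those over all genes. Without DN-MCU adult 3, 0 rose and 2 fell, where 611 of all 11798 genes rose and 631 fell. With array weights 2 rose and 3 fell, where 605 of all genes rose and 493 fell. Over all arrays without weights, 404 of all genes rose and 199 fell. Among 9 of 12 listed sources of reactive oxygen measured, 1 rose and 1 fell. These were the monoamine oxidases of the outer mitochondrial membrane, which release hydrogen peroxide: Maoa rose from 7.0 ± 0.09 to 9.86 ± 1.04 (7.27-fold, limma adjusted p 0.00237) and Maob fell from 10.86 ± 0.09 to 8.9 ± 0.57 (3.9-fold, 0.00134). The adult effect on Maoa exceeded the neonatal effect by 3.03 (limma adjusted p 0.0389, and 0.129 with the neonatal replicate block). Between DN-MCU and WT neonates 0 genes of the regulator, defence and source lists passed in limma, and 1, 2 and 0 of them had an unadjusted p under 0.05.

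With the adult arrays fitted alone, none of the genes named as passing in these 4 lists passed, with limma adjusted p from 0.0784 for Maob to 0.327 for Gsr. The counts that follow include Gsta2, whose call follows from the filter, so they are not comparable with the 3 of 28 above. With Gsta2 counted, 4 of the other NRF2 targets were called higher and 0 lower over all arrays. These counts were 1 and 0 when WT adult 2, WT adult 3 or DN-MCU adult 1 was left out. They were 4 and 1 without DN-MCU adult 2, 3 and 0 without WT adult 1, and 4 and 0 without DN-MCU adult 3. Without both DN-MCU adult 3 and WT adult 1 they were 7 and 0. The counts over all 11798 genes moved too, from 404 higher and 199 lower over all arrays. They were 236 and 97 without WT adult 2, 233 and 84 without WT adult 3, and 273 and 148 without DN-MCU adult 1. They were 682 and 286 without DN-MCU adult 2, 418 and 184 without WT adult 1, and 611 and 631 without DN-MCU adult 3. With both DN-MCU adult 3 and WT adult 1 left out they were 873 and 794.

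**Figure D4:**
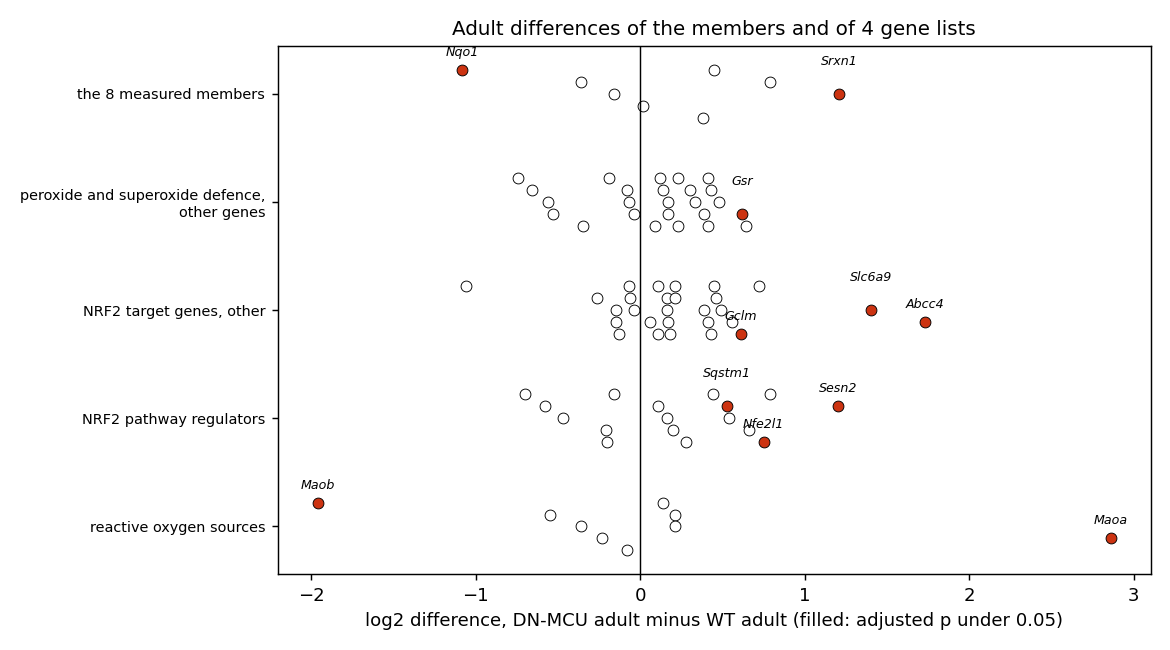
Log2 difference between DN-MCU and WT adults (horizontal axis) for the 8 genes and for the measured genes of the 4 lists (rows); each point is a gene, spread vertically only for legibility, and filled points passed at an adjusted p under 0.05 in limma, and Gsta2 is left out. Nqo1 at -1.08 and Maob at -1.96 are the only filled points below 0, and the filled points above 0 are Srxn1, 3 other NRF2 targets, 3 regulators, Gsr and, farthest right at 2.86, Maoa.

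Between WT neonates and WT adults the other NRF2 targets were called lower in 12 and higher in 3 of 29 genes, with a median of -0.37. For this list and the next 3, the shares over all genes were 17.2% lower and 27.8% higher, with a median of 0.16. The 4 with the smallest p were Ephx1, an epoxide hydrolase (8.99-fold lower), Aox1, an aldehyde oxidase (21.7-fold lower), the exporter Abcc1 (8.73-fold lower) and the glutathione transferase Gstm1 (8.65-fold lower), with limma adjusted p between 4.26e-07 and 7.14e-06. Of the 17 regulators 6 were lower and 2 higher, led by Sqstm1 (6.09-fold lower) and including Nfe2l2 (1.6-fold lower, limma adjusted p 0.00139). The 25 other peroxide and superoxide genes divided evenly, 8 lower and 8 higher, with a median of 0.0. Sod3, the extracellular superoxide dismutase, was lower and at background in WT neonates (2.53 ± 0.06 against 5.95 ± 0.35, SD, n = 3), and Prdx4, the peroxiredoxin of the endoplasmic reticulum, was 4.3-fold higher. Of the 9 sources of reactive oxygen measured, 4 were lower and 0 higher, among them Xdh, xanthine dehydrogenase (log2 10.61 ± 0.29 in WT adults and 4.18 ± 0.68 in WT neonates).

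The genes whose pattern was most like that of the 3 NRF2 targets were found by Pearson's r over the 12 arrays, after the mean of each age was subtracted. Most like Nqo1 were Itgb6 (r = 0.968), Fhl2 (0.963) and Lix1 (0.958). The mean log2 signal of Itgb6 was above background only in WT adults, at 4.56, and was 2.36 to 2.59 in the other groups. Most like Srxn1 were Cldn23 (r = 0.94), the small heat shock protein gene Hspb1 (0.935) and Mllt11 (0.934). Cldn23 had a mean of 6.02 in DN-MCU adults and means of 2.83 to 2.89, below the background level, in the other groups. The ranks of Itgb6 and Cldn23 follow from the adult group in which each was above background, and add no support. Most like Txnrd1 were Stambp (r = 0.908), the constitutive heat shock protein gene Hspa8 (0.897) and Nalcn (0.894). Among the 8 genes, Nqo1 correlated at -0.888 with Srxn1, -0.6 with Txnrd1 and 0.811 with Sod2, and Srxn1 at 0.479 with Txnrd1. These values describe arrays that share groups, so the difference between the adult groups enters each of them.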

How the data were processed

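Total RNA (500 ng per sample) was labelled as biotinylated cRNA, per the labels' protocols, and hybridized to Affymetrix arrays. The authors deposited 1 table of log2 signals for the 12 arrays. The log2 scale was inferred from their range; how the arrays were normalized is not stated in the labels, and the submitters' processing notes name Partek without a version or role. Of 45101 probe sets, the 64 controls were left out, and 24146 were kept because the third highest of their 12 values was above 3.359, the median of the table. A model of the 4 group means was fitted to the 12 arrays in R 4.3.3 with limma 3.58.1, using Benjamini-Hochberg adjustment over the kept probe sets and a threshold of 0.05. The fit was tested on simulated data. A gene is represented by its brightest kept probe set with 1 annotated symbol (11798 genes). Promoter sequences come from RefSeq, GRCm38.p6, in which Hmox1 and Prdx6 were not listed.

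Genes named are the 8 genes and up to 4 called genes with the smallest p of each list and comparison. The 3 genes most like each of Nqo1, Srxn1 and Txnrd1 are also named. Gclc, Gsta3, Nfe2l2, Keap1, Bach1, Sod3, Prdx4 and the named markers were added where the text turns on them. The genes and lists were chosen with earlier results of these data known. Same-numbered WT and DN-MCU neonates correlated in their deviations from group means at 0.134, 0.222 and 0.283, and were taken as paired by this check, as no label gives the meaning of the numbers. Same-numbered adults correlated at -0.381, 0.41 and -0.428 and were not taken as paired. Differently numbered arrays correlated at -0.292 to 0.0902 in neonates and at -0.547 to 0.579 in adults. Deviations from a group mean sum to 0 within the group, so this check cannot show that hearts were paired. Alternatives were subtraction of array medians, quantile normalization, a stricter filter or none, the compared groups alone, replicate blocks, array weights, a trended robust prior, cross-matching probe sets left out, and each array left out. P values rest on the spread between separately labelled hearts within groups, estimated for each probe set over all 4 groups together. Neonatal hearts thus enter the spread used for adult p values, except where the adult arrays were fitted alone. Adult arrays were less alike: their mean correlation with their own group was 0.931 to 0.981, against 0.991 to 0.993 in neonates. The adult p values are therefore not a measure of the spread between adult hearts alone.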

Additional observations from a re-analysis of the deposited data

Results flagged for a closer look

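For 2 genes the test of the difference between the adult and neonatal effects of DN-MCU passed in limma over all 12 arrays without pairing. The adult effect minus the neonatal effect was -1.22 for Nqo1 (adjusted p 0.0194) and 1.41 for the brightest probe set of Srxn1 (0.0403). With the neonatal arrays paired by a replicate block, neither passed in limma (adjusted p 0.0766 and 0.12). The second probe set of Srxn1 had a difference of 2.11, but it was at background in 9 arrays and entered the tests only through the DN-MCU adults, so it adds no support. For Txnrd1 every DN-MCU adult lay above the WT adult mean and every DN-MCU neonate below the WT neonate mean, with a difference of effects of 0.46, which did not pass (limma adjusted p 0.627).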

How the results depend on the processing

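Leaving out cross-matching probe sets removed the brightest probe set of Srxn1, so that alternative gives no value for it. Under the other alternatives run, the adult calls of Nqo1 and Srxn1 were lost only in the fit of the adult arrays alone, which left 0 of the 8 genes called, with limma adjusted p of 0.0673 for Nqo1 and 0.0939 for Srxn1 and 3 of the 8 at an unadjusted p under 0.05. That fit called 65 of all 11798 genes, against 603 in the fit of 12 arrays. The count was 1098 with array weights, 295 and 339 with the replicate block within each age and in neonates only, 317 without WT adult 3, 333 without WT adult 2, 968 without DN-MCU adult 2 and 1242 without DN-MCU adult 3. For the difference between ages, 2 genes were called over all arrays, 1 with no filter, 1 with a trended robust prior and 0 with either replicate block, where 3 of the 8 had an unadjusted p under 0.05 in limma. Leaving out single arrays gave 0 to 2: Nqo1 lost this call without WT neonate 1, 2 or 3, DN-MCU neonate 1 or 2, or WT adult 2 (adjusted p 0.0576 to 0.0817), and Srxn1 lost it without any single WT adult or neonatal array (0.051 to 0.124). For WT neonates against WT adults the replicate block within each age called 2 of the 8 genes, in place of 4. Beside these, the blocks changed no other call of the 8 genes. Hmox1 passed between the ages with array weights (0.77, limma adjusted p 0.0343). None of the called values of the 8 genes reversed sign under an alternative. In neonates the 3 genes called were 2 higher and 1 lower, 0 and 1 with quantile normalization, 0 of either with array medians subtracted (315 at an unadjusted p under 0.05 in limma), 27 and 12 with array weights and 7 and 0 without DN-MCU neonate 3. The lists' adult calls varied more. Without single arrays, the other NRF2 targets called higher, with Gsta2 counted, ranged from 1 to 4 and the regulators from 2 to 4. Genes called higher among all 11798 ranged from 233 to 682 in these fits. Gsr was lost under quantile normalization. With the replicate block in neonates only, 1 target, 2 regulators and 0 defence genes were called higher, against 241 of all 11798 genes. With DN-MCU adult 3 and WT adult 1 both left out, chosen after seeing the data, Nqo1 was at -1.09 and Srxn1 at 1.0, both called. The number of arrays, 3 a group, limits the precision.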
